A study of Homo sapiens with 28 samples.

Results

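TGF-beta signaling was examined through 9 genes of 62703 counted in both tables. These 9 were chosen by symbol, with earlier results of these data known, and found through their GENCODE identifiers. They are the ligands TGFB1, TGFB2 and TGFB3, the receptors TGFBR1, TGFBR2 and TGFBR3, and SMAD6, SMAD7 and SKIL, which the pathway induces and which restrain it. All 9 passed the filter on low counts in both cell lines. RNA-seq had been performed on 24 libraries, 3 in each of 8 groups, of MDST8 and LoVo, 2 lines of human colorectal cancer (CRC) cells, to find genes that depend on TWIST1, a transcription factor of the epithelial-mesenchymal transition. ChIP-seq for TWIST1 in unmodified cells of each line gave 1 peak list per line.

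MDST8 WT cells were compared with 5 TWIST1 knockout clones made by CRISPR-Cas9, named here 1.1 (TG1 in the labels), 2.2 (TG2), and 3.2, 3.5 and 3.6 (all TG3). Each clone grew from a single cell, so that a difference between a clone and WT can come from the knockout or from the cell that founded the clone, and these cannot be told apart. LoVo libraries were labelled either shRNA control or TWIST1 shRNA. The paper lists 3 shRNA target sequences in TWIST1, and the labels do not say which of them a library carried. A figure legend of the paper sets shRNA-1 against LoVo wild-type cells. Nothing in the labels says whether the 3 libraries of a group came from separate cultures, so p-values measure the spread between these libraries, which may be technical. The same 3 WT libraries served all 5 clone comparisons.

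TWIST1 itself went against the LoVo labels. It had 0 counts in each of the 3 libraries labelled shRNA control and 73, 89 and 93 counts in the 3 libraries labelled TWIST1 shRNA. LoVo groups are therefore named by their labels, and no LoVo direction below is a direction of TWIST1 loss. TWIST1 stood at 40.2 to 52.2 CPM (counts scaled to library size with TMM factors) in MDST8 WT and 28.5 to 57.1 CPM in the clones, with a fall in clone 2.2 alone (log2 -0.65), and since CRISPR-Cas9 cuts DNA and need not remove the RNA, these levels do not check the knockout. Total counts ran from 16567606 to 22217009 per library. Mitochondrial genes took 3.49 to 3.96% of counts in LoVo control libraries and 10.9, 6.24 and 5.47% in those labelled TWIST1 shRNA, of which replicate 1 stood apart from the other two. Both lines are labelled as colon, yet in MDST8 EPCAM, CDH1, VIL1, CDX2 and CDX1 had at most 3 counts in each WT library. The 9 epithelial markers summed to 70.1 to 76.1 CPM in WT, against 8043 to 8345 CPM in LoVo control and 4567 to 5186 CPM in LoVo TWIST1 shRNA. The 4 mesenchymal markers summed to 3638 to 3809 CPM in WT and to 119 to 124.5 CPM in LoVo control, and to 14.5 to 17.6 CPM in LoVo TWIST1 shRNA. Single clone libraries ran from 63.85 CPM (clone 3.6) to 134.7 CPM (clone 3.5) for the epithelial markers. For the mesenchymal markers they ran from 3620 CPM (clone 1.1) to 4785 CPM (clone 3.5). Among the clones the 5 fibroblast markers, mostly COL1A1, ranged from 304 to 332.5 CPM in clone 3.6 to 1131 to 1296 CPM in clone 1.1, with 600 to 614 CPM in WT. In LoVo the sum of the fibroblast markers went the other way from that of the mesenchymal markers. It was 4.94 to 6.76 CPM in control and 54.1 to 80.35 CPM in LoVo TWIST1 shRNA. The rise lay mostly in COL1A1, also listed below as a response gene. Its mean was 3.18 CPM in control and 64.95 CPM in LoVo TWIST1 shRNA. Of the 2 fibroblast markers tested in LoVo, 1 was called higher and 1 lower. COL1A2 and DCN had at most 3 counts in each LoVo library. The part of the fibroblast markers in the results was not tested. Leukocyte markers summed to at most 0.354 CPM in any library.

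TGF-beta ligands are secreted in a latent form, held in the matrix by latent TGF-beta binding proteins and freed by integrins and proteases. The active ligand joins the type II receptor TGFBR2, which phosphorylates the type I receptor TGFBR1, and TGFBR1 then phosphorylates SMAD2 and SMAD3, which enter the nucleus with SMAD4. TGFBR3, also called betaglycan, presents ligand, TGFB2 above all, to TGFBR2. SMAD7 blocks TGFBR1, SMAD6 acts mainly on the BMP branch, and SKIL encodes SnoN, a repressor that binds the SMAD complex. In colorectal epithelium the pathway restrains growth, and many colorectal tumors lose a part of it, whereas mesenchymal tumors of the CMS4 class are known for high TGF-beta activity.

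The promoters of TGFB2, which had the largest change among the members in the clones, and of the inhibitors SMAD6 and SMAD7, which fell in LoVo, are shown. TGFBR3 also fell in LoVo, but its RefSeq start does not match the 5′ end in the count table. The sequences come from the RefSeq promoter table of GRCh38.p14 and run from 250 bases before to 50 bases after the start site. All 9 genes had an entry, and the RefSeq start matched the 5′ end in the count table for 6 of them. Capitals mark GTCTAGAC, the palindromic SMAD binding element. The SMAD6 promoter is on the plus strand at chr15:66701986-66702285, that of SMAD7 on the minus strand at chr18:48950916-48951215, and that of TGFB2 on the plus strand at chr1:218345086-218345385.
SMAD6: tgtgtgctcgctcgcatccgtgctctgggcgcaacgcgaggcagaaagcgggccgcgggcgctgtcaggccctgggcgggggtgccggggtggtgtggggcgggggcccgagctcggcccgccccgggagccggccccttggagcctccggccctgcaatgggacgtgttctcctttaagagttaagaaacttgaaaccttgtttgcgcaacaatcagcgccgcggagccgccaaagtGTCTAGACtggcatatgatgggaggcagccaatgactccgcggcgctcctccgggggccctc
SMAD7: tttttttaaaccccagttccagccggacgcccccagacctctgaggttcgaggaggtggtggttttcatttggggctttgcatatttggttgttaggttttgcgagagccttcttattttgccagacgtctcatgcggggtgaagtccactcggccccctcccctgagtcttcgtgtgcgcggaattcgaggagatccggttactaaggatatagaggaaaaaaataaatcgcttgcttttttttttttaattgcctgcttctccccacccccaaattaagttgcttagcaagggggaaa
TGFB2: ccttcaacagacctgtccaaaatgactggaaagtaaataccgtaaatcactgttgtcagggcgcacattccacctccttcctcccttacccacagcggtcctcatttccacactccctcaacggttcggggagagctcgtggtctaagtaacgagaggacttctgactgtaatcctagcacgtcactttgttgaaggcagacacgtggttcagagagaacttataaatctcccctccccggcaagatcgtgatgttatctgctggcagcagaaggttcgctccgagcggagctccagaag
GTCTAGAC was found in 1 of the 9 promoters, that of SMAD6, where its first base lies at position -12 from the start site, while 0.202% of all 35116 promoters hold it. GGCGCC was found in SKIL alone and in 19.2% of all promoters. CATCTG, one form of the E-box, was found in none of the 9 and in 14.7% of all promoters. Other forms of the E-box were not searched for, so their presence in these promoters was not examined. Both strands were searched and the motifs do not overlap each other. A missing match says only that the letters are not in this window, and a match does not show binding.

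Per kilobase of exon, the members spanned a wide range of levels. TGFB1 was at 110 CPM per kb in MDST8 WT, higher than 98.8% of the genes tested in MDST8 by mean level, and at 40.4 CPM per kb in LoVo control. TGFBR2 was second in WT at 24.3 CPM per kb, and in LoVo control, at 8.15, it stood below SMAD7 and SMAD6. SKIL stood at 8.78 and 4.58 CPM per kb, TGFBR1 at 6.71 and 6.51, and SMAD7 at 5.29 and 14.4. The low genes of WT were TGFB2 at 1.71, SMAD6 at 0.805, TGFBR3 at 0.776 and TGFB3 at 0.229 CPM per kb. In LoVo control SMAD6 was at 8.48 and TGFBR3 at 6.32 CPM per kb, above TGFB2 at 3.32. TGFB3 was the lowest member in both lines, with 17 to 53 counts in any library.

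**Figure D1:**
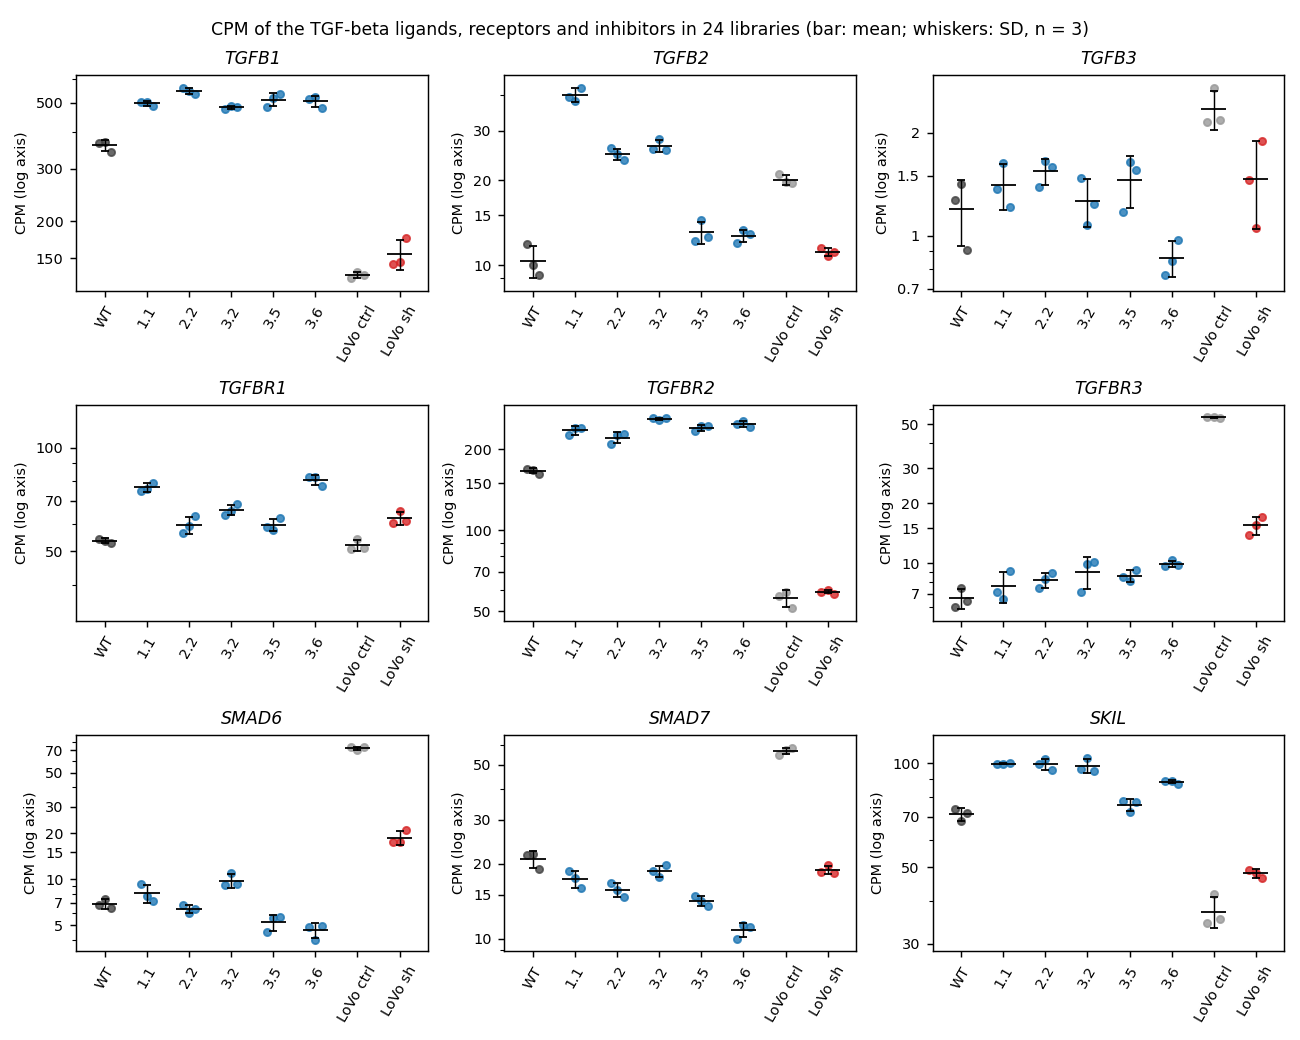
CPM on a log axis of each of the 9 genes in the 8 groups, with a point for each library, a bar at the mean and whiskers of 1 SD (n = 3). TGFB2 separates clones 1.1, 2.2 and 3.2 from clones 3.5 and 3.6, and SMAD6, SMAD7 and TGFBR3 are highest in LoVo shRNA control. LoVo ctrl and LoVo sh stand for the libraries labelled shRNA control and TWIST1 shRNA.

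Among the ligands, TGFB2 rose in clones 1.1, 2.2 and 3.2 and fell in the LoVo libraries labelled TWIST1 shRNA. TGFB2 (ENSG00000092969.12, hg38 chr1:218345336-218444619, plus strand) encodes the ligand that depends most on TGFBR3. WT libraries had 11.8, 10.0 and 9.23 CPM, from 183 to 224 counts. Clone 1.1 had 39.5, 38.1 and 42.6 CPM, clone 2.2 had 25.9, 24.7 and 23.6, and clone 3.2 had 25.8, 28.0 and 25.6. Clones 3.5 and 3.6 stayed close to WT, at 12.2, 14.4 and 12.6 CPM and at 11.99, 13.3 and 12.9 CPM. All 15 clone libraries lay above the highest WT library, clones 2.2 and 3.2 overlapped each other, and so did clones 3.5 and 3.6. The fold change was 3.86 in clone 1.1 (log2 1.95 ± 0.08, SE), 2.37 in clone 2.2 (1.25 ± 0.09) and 2.55 in clone 3.2 (1.35 ± 0.08), with adjusted p-values of 1.07e-20, 1.81e-14 and 1.03e-15. All fits are edgeR quasi-likelihood fits, with p-values adjusted over all genes tested by Benjamini-Hochberg. A gene was called, and is said to rise or fall, when its absolute log2 fold change exceeded 0.58 and its adjusted p-value was below 0.05. Clones 3.5 and 3.6 were not called, with log2 fold changes of 0.33 ± 0.09 and 0.30 ± 0.09 and adjusted p-values of 0.00299 and 0.00536. Clones 3.2, 3.5 and 3.6 share the label TG3, so the levels of TGFB2 did not follow that label. An F test for differences among the 5 clones gave an adjusted p of 6.24e-20.

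In LoVo, TGFB2 fell from 21.1, 19.7 and 19.5 CPM in control to 11.5, 10.7 and 11.1 CPM in the libraries labelled TWIST1 shRNA. The groups did not overlap, and the log2 fold change was -0.82 ± 0.10 with an adjusted p of 1.26e-06. Of the 6050 exon bases of TGFB2, 34.2% are shared with TGFB2-AS1 on the other strand or with TGFB2-OT1. Strand was not used in counting and reads shared by several genes are not counted by default, so the level of TGFB2 may be too low throughout. TGFB2-AS1 had at most 5 counts and TGFB2-OT1 had 0 counts in every library.

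TGFB1 (ENSG00000105329.11, chr19:41301587-41353922, minus strand), the ligand most cells release, was higher in every clone library than in any WT library. WT libraries had 366.5, 370 and 343 CPM and the 15 clone libraries 475.5 to 561 CPM. The log2 fold change passed the fold threshold in clone 2.2 alone, at 0.60 ± 0.04 with an adjusted p of 2.55e-15. In the other 4 clones it ran from 0.42 to 0.50, with adjusted p-values of 1.46e-11 or less. The call in clone 2.2 was lost without WT replicate C or its own replicate A (both just below the threshold and 0.58 when rounded) and with limma on log2(RPM + 1) (0.572), and clone 3.6 passed the threshold with limma on log2(count + 1) (0.615). Clone means of 482 to 548 CPM formed a narrow band, in which clones 3.2, 1.1, 3.6 and 3.5 overlapped as neighbors and clone 2.2 stood above. LoVo control libraries had 129, 134.5 and 132 CPM and those labelled TWIST1 shRNA 143, 146 and 176 CPM. LoVo groups did not overlap, but the log2 fold change of 0.26 ± 0.07 (adjusted p = 0.00323) was below the threshold. HNRNPUL1 on the other strand shares 6.59% of the exon bases of TGFB1.

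TGFB3 (ENSG00000119699.8, chr14:75958097-75983011, minus strand) was too low for firm statements. WT had 24, 28 and 18 counts and the clones 17 to 35 counts, and no clone was called, with log2 fold changes from -0.47 ± 0.28 to 0.36 ± 0.25. In LoVo it had 35, 53 and 38 counts in control and 28, 18 and 34 counts in the libraries labelled TWIST1 shRNA. The LoVo groups did not overlap in CPM, and the log2 fold change of -0.64 ± 0.29 had an adjusted p of 0.0499. That call was lost when any of control A, B or C or replicate 1 or 2 labelled TWIST1 shRNA was left out (log2 -0.69 to -0.46).

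The receptors TGFBR1 and TGFBR2 were higher in all 15 clone libraries than in any WT library, with fitted log2 fold changes of 0.14 to 0.64, and TGFBR3 fell in LoVo. TGFBR2 (ENSG00000163513.19, chr3:30606601-30694142, plus strand), the receptor that binds ligand first, had 169, 168 and 162 CPM in WT. Clone libraries had 210 to 262 CPM, in the order of means 2.2, 1.1, 3.5, 3.6 and 3.2, in which the first 4 overlapped as neighbors and clone 3.2 stood above. It rose in clone 3.2 (log2 0.64 ± 0.04, adjusted p = 1.11e-16) and in clone 3.6 (0.58 ± 0.04, 6.69e-16), and was at 0.40 to 0.53 in the other 3. Clone 3.6 lies at the threshold: without WT replicate C or its own replicate B the value was 0.57 to 0.58 and not called. In LoVo the groups overlapped, at 57.0, 59.1 and 51.3 CPM in control and 59.1, 59.8 and 58.1 CPM in the libraries labelled TWIST1 shRNA.

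TGFBR1 (ENSG00000106799.14, chr9:99104038-99154192, plus strand), the kinase that phosphorylates SMAD2 and SMAD3, had 54.4, 53.7 and 52.7 CPM in WT. Clones 1.1 and 3.6 were highest, at 74.8, 76.0 and 79.0 CPM and at 82.3, 82.4 and 77.5 CPM, and they overlapped each other. Clones 2.2, 3.5 and 3.2 had 56.6 to 68.5 CPM. It rose in clone 3.6 (log2 0.59 ± 0.05, adjusted p = 4.03e-13), where the call was lost without its replicate A (0.58). Clone 1.1 had 0.51 ± 0.05, and the other 3 clones 0.14 to 0.30. In LoVo, 50.8, 54.3 and 51.0 CPM in control stood below 60.3, 65.5 and 61.3 CPM in the libraries labelled TWIST1 shRNA, with a log2 fold change of 0.29 ± 0.07 (adjusted p = 0.000704) below the threshold.

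TGFBR3 (ENSG00000069702.11, chr1:91680343-91906335, minus strand), the betaglycan co-receptor, was far higher in LoVo control than in the other 7 groups. Control libraries had 54.2, 54.5 and 53.9 CPM, and those labelled TWIST1 shRNA had 13.9, 15.5 and 17.1 CPM. This is a log2 fold change of -1.78 ± 0.08 (adjusted p = 7.41e-12), or 0.291 of the control level. Without replicate 1 it was -1.69. In MDST8 the co-receptor was low, at 6.03, 7.53 and 6.41 CPM in WT and 6.63 to 10.3 CPM in the clones. Clones 3.5 and 3.6 lay above WT without overlap, the other 3 overlapped WT, and no clone was called. Clone 3.6, at 0.57 ± 0.13 (adjusted p = 0.000194), lay just below the threshold, and leaving out WT replicate B or its own replicate A or C put it past the threshold, at 0.59 to 0.68. The F test among clones was not passed (adjusted p = 0.0585).

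Of the inhibitors, SMAD6 and SMAD7 fell in the LoVo libraries labelled TWIST1 shRNA, and among the clones SMAD7 fell in clone 3.6. SMAD6 (ENSG00000137834.15, chr15:66702236-66782849, plus strand) had 73.7, 70.6 and 73.4 CPM in LoVo control and 17.6, 17.6 and 21.1 CPM in the libraries labelled TWIST1 shRNA. Its log2 fold change of -1.92 ± 0.08 (adjusted p = 1.58e-12) was the largest decrease among the 9 genes in LoVo, and was -1.86 without replicate 1. MDST8 WT had 6.77, 7.43 and 6.46 CPM. Clone 3.2 lay above WT, at 9.09, 10.9 and 9.27 CPM, whereas clones 3.5 and 3.6 lay below it, at 4.51, 5.55 and 5.64 CPM and at 4.89, 4.01 and 4.96 CPM. Clones 1.1 and 2.2 overlapped WT. None was called, with log2 fold changes of 0.50 ± 0.12 in clone 3.2 (adjusted p = 0.000705), -0.40 ± 0.14 in clone 3.5 (0.0126) and -0.57 ± 0.14 in clone 3.6 (0.000382). The value in clone 3.6 passed the threshold, at -0.63 to -0.60, without WT replicate C or its own replicate A or C. The 3 clones labelled TG3 thus lay on both sides of WT, and the F test among the 5 clones gave an adjusted p of 9.45e-09.

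SMAD7 (ENSG00000101665.10, chr18:48919853-48950965, minus strand), which blocks the type I receptor, had 21.6, 21.9 and 19.02 CPM in WT. It fell in clone 3.6 to 10.0, 11.3 and 11.1 CPM (log2 -0.95 ± 0.09, adjusted p = 7.14e-12). Clone 3.5 had 14.8, 14.1 and 13.5 CPM, at -0.57 ± 0.08 just short of the threshold and not called. It passed the threshold, at -0.62 to -0.60, without WT replicate C or its own replicate A. Clones 2.2, 1.1 and 3.2 were at -0.42, -0.27 and -0.17, and of the 15 clone libraries 14 lay below the lowest WT library, the exception being in clone 3.2. LoVo control had 54.9, 57.6 and 58.2 CPM and the libraries labelled TWIST1 shRNA 18.6, 19.7 and 18.3 CPM. The groups were far apart, with a log2 fold change of -1.56 ± 0.07 (adjusted p = 7.55e-12), or -1.54 without replicate 1. At 18.9 ± 0.72 CPM (SD, n = 3), LoVo TWIST1 shRNA overlapped MDST8 WT, at 20.9 ± 1.6 CPM.

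SKIL (ENSG00000136603.15, chr3:170357342-170396835, plus strand), which encodes SnoN, was called in no clone and not in LoVo. WT had 74.0, 68.0 and 71.8 CPM. Clones 1.1, 2.2 and 3.2 had 94.9 to 104 CPM, overlapped each other and had log2 fold changes of 0.48, 0.47 and 0.46 (adjusted p-values of 3.32e-11 or less). Clone 3.6 was at 0.31 ± 0.04, and clone 3.5 overlapped WT at 0.08 ± 0.04 (adjusted p = 0.105). LoVo control had 34.5, 41.7 and 35.4 CPM, below 49.2, 48.0 and 46.6 CPM in the libraries labelled TWIST1 shRNA, with a log2 fold change of 0.39 ± 0.08 (adjusted p = 0.000242).

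**Figure D2:**
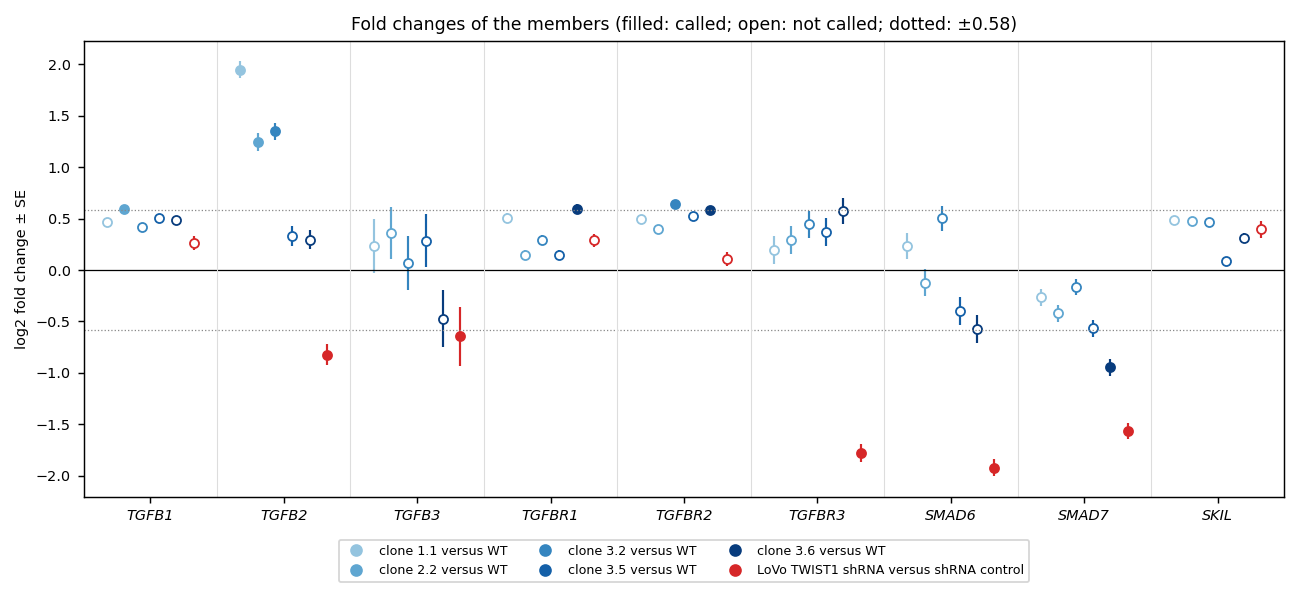
Log2 fold change ± SE of each of the 9 genes in the 5 clones against WT (blue, light to dark from 1.1 to 3.6) and in LoVo (red, labelled TWIST1 shRNA against shRNA control). Filled points passed both thresholds, and the dotted lines stand at ±0.58. TGFB2 reached 1.95 in clone 1.1, and TGFBR3, SMAD6 and SMAD7 were at -1.78, -1.92 and -1.56 in LoVo.

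Over the members, the number called was 1, 2, 2, 0 and 3 of 9 in clones 1.1, 2.2, 3.2, 3.5 and 3.6, against 19.5, 14.7, 17, 18.5 and 27.0% of all 13706 genes tested in MDST8. Called higher were 1, 2, 2, 0 and 2 members, beside 12, 8.05, 10.9, 11.2 and 15.3% of all genes, and called lower 0, 0, 0, 0 and 1, beside 7.49, 6.64, 6.09, 7.25 and 11.7%. Without regard to the fold threshold, 5, 5, 6, 5 and 6 members had every clone library above every WT library, where 32.2, 30.6, 31.3, 32.4 and 35.2% of all genes did. Every clone library lay below WT for 1, 1, 0, 2 and 2 members, where 33.6, 30.5, 33.2, 32.0 and 35.3% of all genes did. The median log2 fold change of the 9 genes was 0.46, 0.36, 0.45, 0.28 and 0.31, beside medians from -0.01 to 0.00 over all genes. Since the 9 genes were chosen with earlier results of these data known, their counts and medians are a description. TGFB1, TGFB2, TGFBR1 and TGFBR2, or 4 of 9, lay above WT in all 15 clone libraries, and none lay below in all 15, while 13.2% of all genes lay above and 14.2% below. In the F test among clones 8 of 9 passed, all except TGFBR3, but 81.0% of all genes tested passed as well. When a span of more than 0.58 between the lowest and the highest clone was also asked for, 4 members passed (TGFB2, SMAD6, TGFB3 and SMAD7), against 32.0% of all genes. This second rule was chosen after the values had been seen. The span was 1.65 for TGFB2, 1.08 for SMAD6, 0.83 for TGFB3 and 0.78 for SMAD7, and 0.18 for TGFB1, the smallest among the 9.

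In LoVo, 5 members were called lower (TGFB2, TGFB3, TGFBR3, SMAD6 and SMAD7) and 0 higher, among 14270 genes of which 26.1% were called lower, 26.6% higher and 52.7% in either direction. Without replicate 1 labelled TWIST1 shRNA, 4 were called. With 3 libraries against 3, these 5 genes lay lower without overlap and TGFB1, TGFBR1 and SKIL higher, while 41.0% of all genes lay lower and 38.6% higher. The median of the members was -0.64, beside 0.01 over all genes. The summed epithelial, mesenchymal and fibroblast markers and the mitochondrial share given above differed between the same libraries, and their part in these differences was not tested. In bulk RNA, fewer cells of a type and less RNA per cell cannot be told apart.

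Whether the LoVo difference departed from the mean of the 5 clone differences was tested in a joint fit. It did for 5 of 9 members, where 48.9% of 15844 genes were called (25.3% higher and 23.6% lower), and each of the 5 was lower in LoVo. The log2 difference was -2.19 ± 0.14 for TGFBR3, -1.89 ± 0.11 for TGFB2, -1.89 ± 0.13 for SMAD6, -1.13 ± 0.09 for SMAD7 and -0.77 ± 0.33 for TGFB3. Adjusted p-values were 3.6e-16, 9.66e-17, 1.26e-15, 6.11e-13 and 0.0372. Without replicate 1 labelled TWIST1 shRNA 4 of these calls remained, at -2.12, -1.92, -1.85 and -1.12, and that of TGFB3 was lost, at -0.77. For SKIL it was -0.01 ± 0.07 and for TGFBR1 -0.08 ± 0.07, signs that some settings turned. TGFB1 at -0.27 ± 0.07 and TGFBR2 at -0.46 ± 0.06 were not called. Since TWIST1 counts were higher in the LoVo libraries labelled TWIST1 shRNA, the sign of this contrast follows the labels and not the level of TWIST1.

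How far MDST8 WT differed from LoVo depended on the LoVo group. Against LoVo control, MDST8 WT was higher for TGFBR2 (log2 1.58 ± 0.05), TGFB1 (1.45 ± 0.05) and SKIL (0.93 ± 0.06). It was lower for SMAD6 (-3.40 ± 0.10), TGFBR3 (-3.02 ± 0.11), SMAD7 (-1.45 ± 0.07), TGFB3 (-0.97 ± 0.26) and TGFB2 (-0.95 ± 0.09). TGFBR1, at 0.04 ± 0.05, was the only member not called, so that 8 of 9 were called, 3 higher and 5 lower, against 66.5% of all genes, of which 33.4 percentage points were higher and 33.1 lower. Against the LoVo libraries labelled TWIST1 shRNA, 4 of 9 were called, where 63.0% of all genes were, 30.4 percentage points of them higher and 32.5 lower. TGFBR2 (1.5 ± 0.05) and TGFB1 (1.22 ± 0.05) were again higher in MDST8, and SMAD6 (-1.44 ± 0.11) and TGFBR3 (-1.21 ± 0.12) lower, whereas TGFB2 (-0.10 ± 0.10), TGFB3 (-0.30 ± 0.27) and SMAD7 (0.15 ± 0.08) were not called. TGFBR1 at -0.22 ± 0.05 and SKIL at 0.57 ± 0.06 were under the fold threshold, and SKIL passed it without LoVo TWIST1 shRNA replicate 1 or WT replicate B, at 0.59 and 0.60. Both comparisons share the WT libraries, and the cell line cannot be told apart from any batch between the tables.

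Another 60 genes of the pathway had been listed in 7 groups, of which 53 were tested in MDST8 and 56 in LoVo. In clones 1.1, 2.2, 3.2, 3.5 and 3.6, respectively 14, 9, 12, 6 and 15 were called higher and 6, 3, 6, 7 and 12 lower, with medians of 0.29, 0.28, 0.17, 0.13 and 0.14. In either direction this is 37.74, 22.64, 33.96, 24.53 and 50.94% of the genes tested from the lists, beside 19.5, 14.7, 17, 18.5 and 27.0% of all genes. In LoVo 14 were called higher and 24 lower, or 67.86% beside 52.7% of all genes, with a median of -0.34. The counts of single lists below are to be read against the shares of all genes called, which in the clones were 12, 8.05, 10.9, 11.2 and 15.3% higher and 7.49, 6.64, 6.09, 7.25 and 11.7% lower, and in LoVo 26.6% higher and 26.1% lower. With 3 to 12 genes a list, these counts are a description. These lists were put together with earlier results of the same data known.

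**Figure D3:**
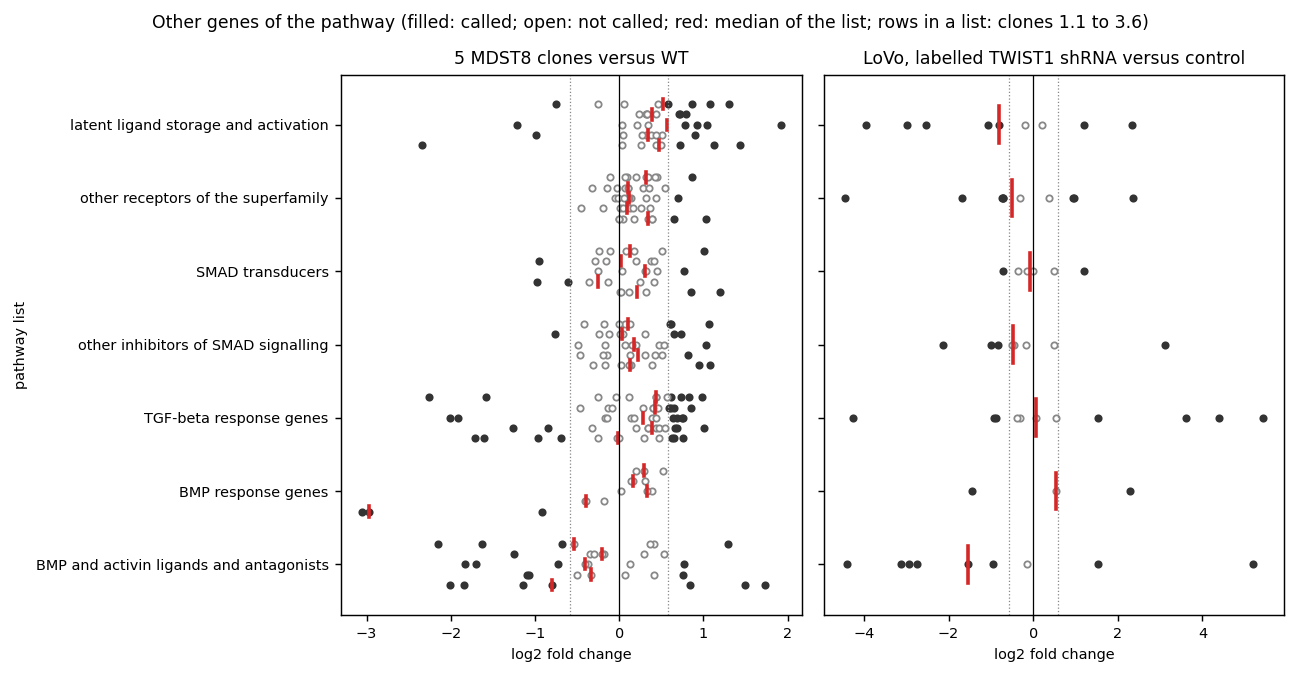
Log2 fold change of each tested gene of the 7 pathway lists, in the 5 clones against WT (left, one row per clone from 1.1 at the top to 3.6) and in LoVo (right). Filled points were called, red bars mark the median of the list, and dotted lines stand at ±0.58. The BMP response genes of clone 3.6 lie far to the left, with a median of -2.97, and the x axes of the panels differ.

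Of the genes that store and free latent ligand, LTBP3 rose and THBS1 fell in the same 4 clones. Of 8 listed genes tested in MDST8, 4, 3, 4, 1 and 3 were called higher and 1, 0, 1, 1 and 1 lower in the order of clones. LTBP3, a latent TGF-beta binding protein, rose in clones 1.1, 3.2, 3.5 and 3.6, with log2 fold changes of 1.08, 1.04, 0.90 and 1.43, and was at 0.43 in clone 2.2. THBS1, thrombospondin, which can activate latent TGFB1, fell in the same 4 clones (-0.75, -1.22, -0.98 and -2.34) but rose in clone 2.2 (0.79 ± 0.05, adjusted p = 1.97e-14). In LoVo, 2 of 9 were called higher and 5 lower: THBS1 fell by 2.98 on the log2 scale, ITGB6, an integrin subunit that frees the ligand, fell by 3.95, and LTBP3 rose by 2.34.

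Of 9 tested receptors of the superfamily, respectively 1, 0, 1, 0 and 2 rose and none fell in the clones, with 3 higher and 5 lower of 10 in LoVo. BMPR1B, a BMP type I receptor, had a log2 fold change of -4.46 ± 0.18 in LoVo, and ENG, or endoglin, rose by 2.37 ± 0.32 from 0.591 ± 0.17 to 2.98 ± 0.36 CPM (SD, n = 3). Of the 6 SMAD transducers, 1, 0, 1, 0 and 2 rose and 0, 1, 0, 2 and 0 fell in the clones. SMAD3, which TGFBR1 phosphorylates, rose in clones 1.1, 3.2 and 3.6 (1.01, 0.77 and 0.85), from 79.8 ± 1.3 CPM in WT to 161, 136 and 144 CPM, and was at 0.38 and 0.42 in clones 2.2 and 3.5 and at -0.36 in LoVo. It is named here after its values were seen. SMAD1 of the BMP branch rose in clone 3.6 (1.19) and fell in clones 2.2 (-0.95) and 3.5 (-0.61), and in LoVo (-0.72). SMAD9, of the same branch, fell in clone 3.5 (-0.98) and rose in LoVo (1.2).

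PMEPA1, a target of the pathway that takes SMADs out of the receptor complex, rose in all 5 clones, at 1.07, 0.73, 1.02, 0.81 and 0.95, each with an SE of 0.04. Its level was 390 ± 32 CPM in WT and 650 to 819 CPM in the clones, and 3.17% of all genes were called higher in every clone. In LoVo it fell by 2.13 ± 0.11, from 31.1 to 6.96 CPM. SMURF2, the ubiquitin ligase that works with SMAD7, rose in LoVo by 3.13 ± 0.06, from 55.8 to 478 CPM, and was at -0.31 to -0.12 in the clones. Across the 8 listed inhibitors other than the members, 3, 2, 1, 1 and 2 were called higher and 0, 1, 0, 0 and 0 lower in the clones, and 1 higher and 3 lower in LoVo.

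The 12 response genes did not move one way. In the clones 4, 4, 4, 3 and 3 were called higher and 2, 0, 2, 2 and 4 lower, where 12, 8.05, 10.9, 11.2 and 15.3% of all genes were called higher and 7.49, 6.64, 6.09, 7.25 and 11.7% lower. CCN2, a matricellular target shared with YAP, fell in clones 1.1, 3.2, 3.5 and 3.6 (-1.58, -1.91, -1.26 and -1.72) and was at -0.14 in clone 2.2, a level of 294 ± 3.0 CPM beside 322 ± 7.5 CPM in WT. JUNB, an early target, rose in clones 1.1, 2.2, 3.2 and 3.6 (0.61 to 0.69) and was at 0.55 in clone 3.5. COL1A1, a collagen chain, rose in clone 1.1 (0.98) and fell in clone 3.6 (-0.96). In LoVo 4 of 11 rose and 3 fell. COL1A1 rose by 4.39 ± 0.19, from a mean of only 3.18 CPM in control to 65 CPM, and JUNB rose by 1.52 ± 0.09. TGFBI, FN1 and CDKN2B, named here after their values were seen, had lower means in the libraries labelled TWIST1 shRNA. TGFBI went from 124 to 6.3 CPM, FN1 from 56.2 to 28.9 CPM and CDKN2B from 40.9 to 21.75 CPM. IL11, also named after its values were seen, went the other way, from 0.533 to 6.55 CPM. In MDST8, TGFBI averaged 2318 CPM in WT and 2942 to 3911 CPM in the clones. FN1 averaged 5406 CPM in WT, 5388 CPM in clone 3.6 and 7323 to 10900 CPM in the other clones. CDKN2B averaged 13.05 CPM in WT and 15.95 to 23.2 CPM in the clones. IL11 averaged 46.1 CPM in WT and 25.8 to 44.85 CPM in the clones.

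ID1, ID2 and ID3, the classic targets of BMP signaling, fell in clone 3.6 alone among the clones, and ID3 is named here after its values were seen. ID1 went from 34.3 ± 1.2 CPM in WT to 4.38 ± 0.53 CPM (log2 -2.97 ± 0.10, adjusted p = 1.52e-23), ID3 from 28.5 ± 1.9 to 3.44 ± 0.37 CPM (-3.05 ± 0.11) and ID2 from 15.7 ± 0.57 to 8.30 ± 1.1 CPM (-0.92 ± 0.11). Clone 3.6 also had the lowest mean of SMAD6 and of SMAD7. For SMAD6, clone 3.6 overlapped clone 3.5 (means of 4.62 and 5.23 CPM), and neither was called. The other clones had -0.41 to 0.53 for the 3 ID genes. In LoVo, ID1 rose by 2.28 ± 0.08 and ID2 fell by 1.45 ± 0.06.

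Of 7 tested BMP and activin ligands and antagonists, 1, 0, 1, 1 and 3 were called higher and 3, 1, 3, 2 and 4 lower in the clones, with 2 higher and 6 lower of 9 in LoVo. BMP2, a BMP ligand, fell in all 5 clones, from 69.3 ± 4.2 CPM in WT to 19.3 to 33.1 CPM (-1.84 to -1.07), where 1.06% of all genes were called lower in every clone. In the LoVo libraries labelled TWIST1 shRNA it fell, at -4.41 ± 0.14, a direction by label and not of TWIST1 loss. BMP4, another BMP ligand, named after its values were seen, rose in clones 1.1, 3.2, 3.5 and 3.6 (1.29, 0.76, 0.76 and 1.49), from 55.4 ± 5.8 CPM in WT to 156 ± 2.8 CPM in clone 3.6, was at 0.53 in clone 2.2, and fell by 3.12 in LoVo. FST, the activin antagonist follistatin, fell in clones 1.1, 3.2, 3.5 and 3.6 (-2.15 to -1.09) and was at 0.30 in clone 2.2. NOG, or noggin, which binds BMPs, rose in clone 3.6 by 1.74 ± 0.09, to 64.6 ± 3.0 CPM, and in LoVo by 5.19 ± 0.40, from 1 to 7 counts in control libraries to 108 to 148 counts.

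TGFB2 and SMAD6 were the 2 members whose group means spanned at least 1 on the log2 scale over the 6 MDST8 groups, at 1.91 and 1.00. The genes nearest to TGFB2 in pattern, by the root mean square difference of centred group means, were STRA6 (0.21), ATOH8 (0.24) and TLL2 (0.27). STRA6 and ATOH8 were low in WT, at 0.636 and 2.52 CPM. Nearest to SMAD6 were GASK1B (0.07), KCTD15 (0.13) and LHX1-DT (0.15). With 6 group means, such likeness is a description.

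TWIST1 ChIP-seq gave 338877 peaks in MDST8 and 333621 in LoVo at the authors' p-value threshold, of which 1075 and 1550 had a q-value of at most 0.05. TWIST1 RNA averaged 45.7 CPM in MDST8 WT, 0 CPM in LoVo control and 4.73 CPM in LoVo TWIST1 shRNA. No RNA-seq library is labelled as unmodified LoVo cells, and whether the LoVo peaks mark binding of TWIST1 was not tested. Within 3000 bp of the 5′ end, 4 members had a peak in the MDST8 list (TGFB3, TGFBR1, TGFBR3 and SMAD7) and 8 in the LoVo list (all but SKIL). Among the 15844 genes tested in either line the shares were 75.1 and 57.9%, and 63.1 and 55.7% among all annotated genes, so having such a peak was common. Within 1000 bp there were 4 and 5 members with a peak, beside 51.5 and 31.9% of tested genes, and within 5000 bp 7 and 9 members, beside 85.5 and 71.7%. With p limited to 0.001, each list had 1 member with a peak, beside 26.8 and 18.5%. None of the 22 peaks at members had a q-value of at most 0.05, a level that 0.619 and 0.341% of tested genes reached. For TGFBR3 the nearest RefSeq start has an offset of -20184 bp in chromosome coordinates from the 5′ end used here. The TGFBR3 peaks counted here are therefore not near that start.

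**Figure D4:**
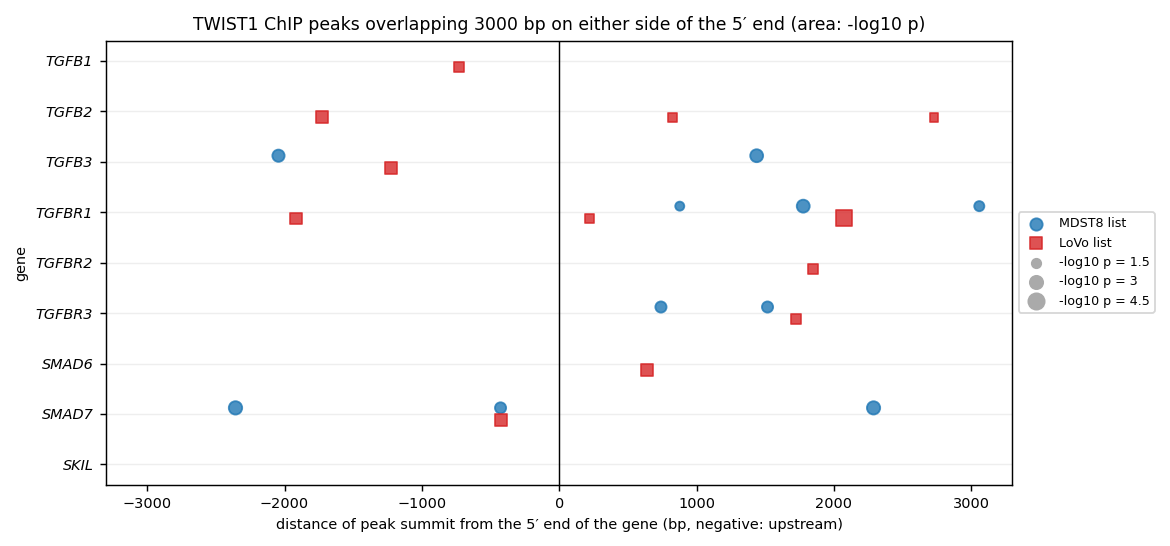
Distance in bp from the 5′ end of each gene to the summit of each TWIST1 peak within 3000 bp of it, for the MDST8 list (blue circles) and the LoVo list (red squares), with an area in proportion to -log10 p. The largest symbol is the LoVo peak of TGFBR1 at 2076 bp downstream, and SMAD7 has summits from both lists at the same place, at -427 and -426 bp.

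SMAD7 had summits at nearly the same base in both lists. Both summits are upstream of the gene. By the values of the authors' peak caller, the MDST8 peak at chr18:48951105-48951457 had a fold enrichment of 2.24 and the LoVo peak at chr18:48950898-48951514 one of 2.28, each with a q-value of 1. Both reach into the SMAD7 promoter printed above. At SMAD6 the LoVo peak at chr15:66702221-66703046 (fold enrichment 2.12, summit in an exon) covers the GTCTAGAC element at chr15:66702224-66702231, and no MDST8 peak lay in the window. TGFB2 had 3 LoVo peaks (fold enrichment 1.70 to 2.51) and 0 MDST8 peaks near its 5′ end. Its gene body held 12 MDST8 peaks, the strongest with a q-value of 0.0408, and 16 LoVo peaks, with a smallest q-value of 0.426. Over the 9 members, gene bodies held from 3 (SKIL) to 30 (TGFBR3) MDST8 peaks and from 1 (TGFB3) to 29 (TGFBR3) LoVo peaks. Among the other members the smallest q-value in a gene body was 0.0911, for TGFBR1 in MDST8. The number of peaks to be found by length alone was not computed.

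Within 3000 bp of a member's 5′ end, the peak with the smallest p-value was a LoVo peak with its summit in an intron of TGFBR1, at chr9:99105728-99106364, to which the authors' peak caller gave a fold enrichment of 3.25, a p-value of 4.05e-05 and a q-value of 0.245. A MDST8 peak at chr9:99105640-99106055 (fold enrichment 2.69, q-value 0.802) overlapped it. The 300 bases around the LoVo summit, chr9:99105964-99106263 on the plus strand of hg38, are shown because no peak this near to the 5′ end of a member had a smaller p-value, with the E-box CATCTG in capitals.
TGFBR1 peak: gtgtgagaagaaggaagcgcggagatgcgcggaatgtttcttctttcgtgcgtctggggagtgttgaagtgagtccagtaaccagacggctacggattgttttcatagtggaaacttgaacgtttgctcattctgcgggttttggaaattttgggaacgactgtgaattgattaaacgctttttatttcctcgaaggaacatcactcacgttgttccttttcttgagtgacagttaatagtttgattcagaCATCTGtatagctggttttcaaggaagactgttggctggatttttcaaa
CATCTG begins 101 bases from the summit, and 20.3% of the 333621 LoVo windows of this length hold it on either strand.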

How the data were processed

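RNA-seq counts and TWIST1 ChIP-seq peaks of MDST8 and LoVo were analysed. The deposited tables hold an unnormalized count of fragments for every gene and library, which the authors made with Trim Galore 0.6.6, HISAT2 2.1.0, SAMtools 1.6 and featureCounts 2.0.0 on hg38 and GENCODE genes. Strand was not used, although dUTP libraries keep it. The deposited peak lists give, per peak, p and q as -log10 values, the fold enrichment as a ratio, a whole-number score and the summit's offset in bp, which the authors made with Bowtie2 2.4.5 and MACS2 2.2.7.1, with p below 0.05. Tool versions are from the submitters' processing notes. Whether the input served as the MACS2 control is not given in the sources used here.

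The 9 members and all gene lists were chosen with earlier results of these data known. Genes with a geometric mean of RPM + 1, minus 1, of at least 1 over the cell line were kept (13706 in MDST8, 14270 in LoVo). edgeR 4.0.16 was run with TMM factors and quasi-likelihood tests on 18 MDST8 libraries, on 6 LoVo libraries, and jointly for contrasts between lines. The study's limma on log2 counts was an alternative, besides DESeq2 1.42.0, voom in limma 3.58.1, other factors and filters, a replicate block, and each library left out. Exact permutation tests of 3 against 3 libraries cannot go below p = 0.10 and are given as overlap. Besides the members, up to 2 genes per list called one way in at least 4 clones and up to 2 called in LoVo are named, by size of change, with the 3 genes nearest in pattern to each member spanning at least 1. A gene that this rule names is not reported here. On simulated counts, 90 to 97% of 2-fold changes in clones were recovered, and 94% in LoVo. Between MDST8 WT and LoVo control, 85% of 2-fold changes were recovered. Peaks within 3000 bp of a 5′ end were listed, and each list comes from 1 ChIP library, so it has no replicate check. Library depth bounds precision for genes with few counts, such as TGFB3.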

Additional observations from a re-analysis of the deposited data

Results flagged for a closer look

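Effects differed among the 5 clones, or between LoVo and the clones, for the following genes. By the F test among clones the adjusted p was 0.00128 for TGFB1, 6.24e-20 for TGFB2, 0.0391 for TGFB3, 3.07e-11 for TGFBR1, 7.39e-06 for TGFBR2, 9.45e-09 for SMAD6, 6.62e-09 for SMAD7 and 5.79e-10 for SKIL. Of all genes tested 81.0% passed this test, so passing it does not set these genes apart. The effect in LoVo minus the mean effect in the clones was -1.89 for TGFB2, -0.77 for TGFB3, -2.19 for TGFBR3, -1.89 for SMAD6 and -1.13 for SMAD7 on the log2 scale. The LoVo libraries labelled TWIST1 shRNA had the higher TWIST1 counts, so the sign of these 5 values rests on labels that the counts go against.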

How the results depend on the processing

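Of 1404 recomputed values of single members, 1343 kept their direction and their side of the threshold. The number of members called moved in clone 2.2 from 2 to 1 with limma on log2(RPM + 1), in clone 3.5 from 0 to 1 with limma on log2(count + 1) or with no filter, in clone 3.6 from 3 to 5 with limma on log2(count + 1) and to 1 with limma on log2(RPM + 1), and in the F test from 8 to 4 with the span rule. Leaving out 1 library gave 1 to 2 members called in clone 2.2, 0 to 1 in clone 3.5 and 2 to 5 in clone 3.6, 4 to 5 in LoVo and in the difference between LoVo and clones, and 7 to 9 in the F test. The libraries that moved a count by over 1.5 times were WT C and 2.2 A in clone 2.2 (to 1), WT C and 3.5 A in clone 3.5 (to 1) and 3.6 C in clone 3.6 (to 5). The moves in the clones concern values near the fold threshold. Near 0, the sign turned for the difference between LoVo and clones of SKIL (0.14 with log2(RPM + 1), 0.10 with upper-quartile factors, -0.055 to 0.089 leaving out 1 library) and TGFBR1 (0.058 and 0.025), for TGFBR1 between WT and LoVo control (-0.0052 with DESeq2, -0.0049 with RLE factors), for TGFB2 between WT and LoVo TWIST1 shRNA (0.0012 with log2(count + 1)) and for TGFB3 in clone 3.2 (-0.0855 to 0.218 leaving out 1 library). With a replicate block, the number called was 1, 2, 2, 0 and 3 in clones 1.1 to 3.6 and 8 in the F test. Libraries with the same letter did not vary together (r from -0.15 to 0.12 over 45 pairs, 3 of them over 0.1). The labels do not say whether the letters pair libraries, and with 3 libraries per group this check cannot settle it. Members with a peak numbered 7 in MDST8 within 5000 bp and 5 in LoVo within 1000 bp, 1 and 1 at p of at most 0.001, and 0 and 0 at q of at most 0.05.

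TGFB3, with 53 counts or fewer in any library, lost its LoVo call in 7 settings other than leaving out a library, and its call for the difference between LoVo and clones in 3. The LoVo control letters and the TWIST1 shRNA numbers are not shared, so no paired analysis was made there. Depth limits TGFB3 most, and also TGFBR3 and SMAD6 in MDST8, with 77 to 244 counts.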
